A study of Homo sapiens with 18 samples.

Results

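The strength of the transcriptional response to lipopolysaccharide (LPS) was compared between THP-1 monocytes carrying a hairpin against NR4A2 (shNR4A2) and THP-1 monocytes carrying a non-target hairpin (shNT). THP-1 is an established human monocytic leukaemia line. The 12 libraries used, of 18 in the series, were chosen by their labels alone: shNT control, shNT with LPS, shNR4A2 control and shNR4A2 with LPS, with 3 libraries in each group. LPS was given at 2.5 µg/ml for 2 hours, after the cells had been moved from their growth medium to buffered DMEM, and the control cells received no LPS. Each hairpin was represented by a single stable, puromycin-selected population, so that differences between lines may come from the hairpin or from anything else in which these populations differ, and the effects cannot be told apart. The study calls the libraries independent experiments, but the labels do not tie the libraries of different groups together, and p-values measure the spread between these libraries. PolyA-selected RNA was sequenced, and the files held counts per gene. Reads assigned to genes numbered between 17132910 and 23929138 per library, with a median of 20111784. The medians by group were 19654525 in shNT control, 20425843 in shNT with LPS, 22046231 in shNR4A2 control and 19623617 in shNR4A2 with LPS.

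LPS, a component of the outer membrane of Gram-negative bacteria, is recognised by the receptor TLR4 together with MD-2 and CD14. The adaptors MyD88 and TRIF then activate NF-κB and the mitogen-activated protein kinases, and monocytes switch on cytokines, chemokines and, in the same hours, the inhibitors that end the response. NR4A2 is an orphan nuclear receptor and itself an early gene of this response, and it is known for restraining inflammatory genes in several myeloid cell types. The comparison below asks whether the line with less NR4A2 answered the same stimulus with larger or smaller changes. For each gene the LPS log2 fold change in the shNT line was subtracted from that in the shNR4A2 line, and this difference is called the interaction of line and LPS. A positive interaction means a more positive LPS log2 fold change in shNR4A2 cells, which for a gene lowered by LPS is a smaller fall. Levels are given as TPM, counts scaled by gene length and by library, which can be compared between genes.

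The target of the hairpin was examined first. NR4A2 was at 4.16, 2.83 and 4.08 TPM in the shNT control libraries and at 62.2, 74.7 and 51.2 TPM with LPS. In the shNR4A2 line it was at 1.82, 1.63 and 2.40 TPM in the controls and at 20.5, 28.3 and 14.8 TPM with LPS. Each shNR4A2 library was below each shNT library of the same treatment, so the label of the line was borne out at the level of the RNA. The line difference was −0.92 on the log2 scale without LPS (adjusted p = 0.0342, edgeR quasi-likelihood test with Benjamini-Hochberg adjustment) and −1.52 with LPS (adjusted p = 9e-05, same test). LPS induced the remaining NR4A2 as well, with log2 fold changes of 4.29 in shNT and 3.69 in shNR4A2 cells. The interaction of NR4A2 was −0.60 with a 95% interval from −1.25 to 0.05. NR4A3, its close relative and another early gene, went from a mean of 0.587 to 31.7 TPM in shNT cells and from 0.936 to 34.0 TPM in shNR4A2 cells. NR4A1, the founding member of the family, went from 7.53 to 18.1 TPM in shNT cells and from 6.86 to 15.1 TPM in shNR4A2 cells. The interactions of NR4A3 (−0.52, 95% interval −1.16 to 0.11) and NR4A1 (−0.07, 95% interval −0.61 to 0.47) had intervals that contained 0. Of the NR4A receptors and their partners, 3 of 11 tested members rose with LPS in each line, namely these 3 receptors. Of all genes tested, 4.59% rose in shNT and 5.45% in shNR4A2 cells. In each line 1 member of the list fell, against 2.96% and 3.62% of all genes. Among the partners, RXRA, the retinoid receptor with which NR4A2 can pair, had an interaction of −0.01, and HDAC1, a histone deacetylase of the CoREST complex, had 0.10.

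The cells carried the markers of THP-1 monocytes in all 12 libraries. The summed level of the monocyte and granule markers was between 13240 and 18640 TPM in shNT libraries and between 10450 and 15870 TPM in shNR4A2 libraries, with ELANE and CTSG, proteases of myeloid granules, among the most abundant. The summed level of erythroid markers was at most 0.476 TPM, that of epithelial markers at most 0.955 TPM and that of fibroblast markers at most 1.17 TPM. B cell markers summed to between 7.69 and 17.3 TPM. T cell markers summed to between 3.53 and 6.83 TPM, and of these TRAC passed the filter on low counts while CD3D, CD3E, CD3G and CD2 did not. The lower sum in the shNR4A2 line was carried by the granule proteases ELANE, CTSG, AZU1 and PRTN3, none of which differed between the lines by the test. Some other monocyte markers were higher in shNR4A2 cells. LYZ, lysozyme, was at 192 and 616 TPM in the shNT and shNR4A2 controls (line difference 1.67). ITGB2, an integrin chain, was at 423 and 650 TPM, and CSF1R, the receptor of the macrophage growth factor, at 85.0 and 145 TPM. CD33, CD4, FCGR1A, ITGAM, CEBPA and MPO did not differ between the lines by the test in either treatment. Of these, CEBPA and MPO had negative line differences in the controls, at −0.23 and −0.30. LYZ, ITGB2 and CSF1R passed the test of the line difference without LPS (adjusted p at most 0.00641, edgeR) and with LPS. The part of these differences in the results was not tested. In bulk RNA, fewer cells answering LPS and less RNA per cell cannot be told apart.

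Both lines answered LPS with changes in many genes, and the same direction was seen for every gene called in both. A gene was called where its adjusted p was under 0.05 and it changed at least 2-fold. In shNT cells, 765 genes (4.59% of 16674 tested) rose and 493 genes (2.96%) fell. In shNR4A2 cells, 908 genes (5.45%) rose and 604 genes (3.62%) fell. Of these, 1056 genes were called in both lines, which is 83.9% of the genes called in shNT and 69.8% of those called in shNR4A2. Of the 456 genes called in shNR4A2 alone, 443 had the same sign in shNT and 76 had an unadjusted interaction p under 0.05. Of the 202 genes called in shNT alone, 197 had the same sign in shNR4A2 and 24 had such an interaction p. The calls of the shNR4A2 line thus outnumbered those of the shNT line, but most genes called in a single line were not shown to differ between the lines. Leaving out the second shNR4A2 library with LPS gave 1748 calls in that line.

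No gene passed the test of the interaction itself in the main fit of 4 groups. The edgeR quasi-likelihood test called 0 genes with a larger LPS log2 fold change in shNR4A2 cells (0.0% of 16674) and 0 with a smaller one (0.0%). At an unadjusted p under 0.05 there were 365 genes (2.19%), of which 199 (1.19%) had a higher LPS log2 fold change in shNR4A2 cells and 166 (0.996%) a lower one. DESeq2 called 2 genes, both with positive interactions, MYC among them. Without the second shNR4A2 library with LPS, edgeR called 8 genes, all with positive interactions, among them MYC, AC006449.6, CFLAR and KANK1. With no filter on low counts it called 29 genes, 22 with a positive and 7 with a negative interaction. With the replicate number added to the model it called 8 genes, 4 with a positive and 4 with a negative interaction. MYC, CXCR4, KLF4, RCAN1 and PHLDA1 were among these 8, and with the number nested in line 0 genes were called. The interaction lay within 1 log2 unit of 0 for 16136 genes (96.8%). For 11665 genes (70.0%) the whole 95% interval lay within a 2-fold difference on either side, so that for those genes a 2-fold difference of the responses is outside the interval, while for the rest these 12 libraries did not have the precision to tell.

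**Figure D1:**
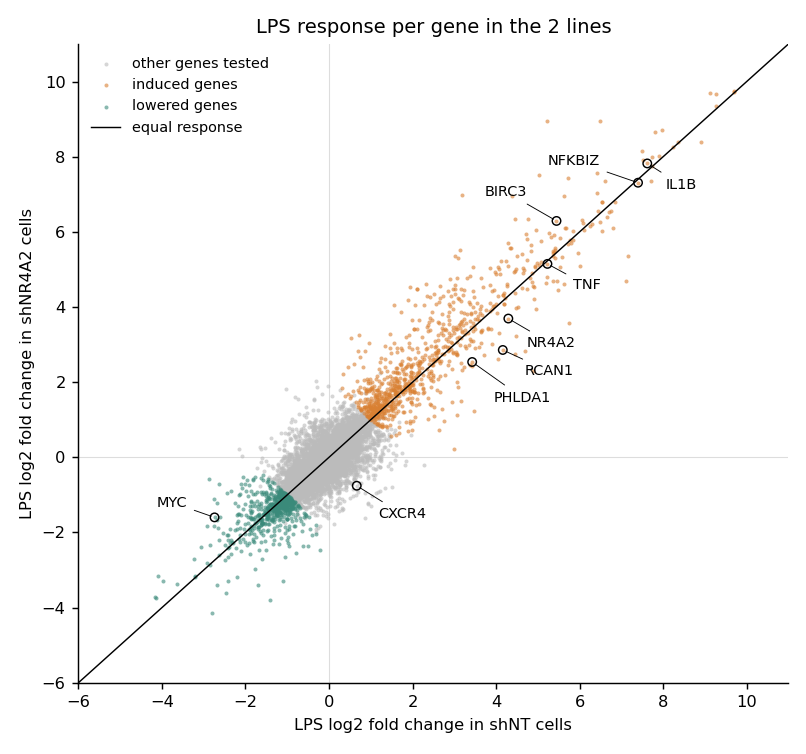
Each point is a gene, with its LPS log2 fold change in shNT cells on the x axis and in shNR4A2 cells on the y axis. The 891 induced and 623 lowered genes are coloured, the line marks equal responses and genes with a group at 0 counts are left out; points lie along the line, with MYC above it and CXCR4, RCAN1 and PHLDA1 below it.

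The size of the response was then compared over all genes that LPS induced on average. These were 891 genes whose mean log2 fold change over both lines was at least 1 at an adjusted p under 0.05, a choice that favours neither line. Their median log2 fold change was 2.03 in shNT and 2.29 in shNR4A2 cells, and the median interaction was 0.20, with the middle 50% of genes between −0.09 and 0.62. The interaction was above 0 for 617 of the 891 (69.2%), against 52.2% of all genes tested, whose median was 0.01. The amplitude ratio, the slope that turns the shNT responses into the shNR4A2 responses with both lines treated alike, was 1.078 over the induced genes. On average, then, the induced genes changed by a slightly larger factor in the line with less NR4A2, and 719 of them (80.7%) were within 1 log2 unit of the same response. At an unadjusted interaction p under 0.05, 85 induced genes (9.54%) had a higher response in shNR4A2 cells and 17 (1.91%) a lower one, against the 1.19% and 0.996% given above for all genes. The response ranges of the lines, formed from the lowest and highest libraries of each group, lay apart for 48 induced genes (5.39%) in the higher direction and for 8 (0.898%) in the lower, against 0.642% and 0.546% of all genes tested. These genes share their 12 libraries and are not independent of each other, so the counts describe these libraries.

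The difference in amplitude was of the size of the differences between libraries of a line. Each LPS library was set against the mean of its line's controls, as log2 counts scaled by library size (CPM) with a prior count of 2, and its slope on the mean response was taken. The amplitude of the induced genes was 0.826, 0.750 and 0.814 in the shNT libraries (0.797 ± 0.0412, SD, n = 3) and 0.936, 0.797 and 0.928 in the shNR4A2 libraries (0.887 ± 0.0782, SD, n = 3). The second library was the lowest in both lines. The second shNR4A2 library lay below 2 of the 3 shNT libraries, so the lines overlapped when the numbers were ignored. These amplitudes are below 1 because the prior count draws low control levels toward higher ones. Between libraries of the same number, the ratio of shNR4A2 over shNT was 1.13, 1.06 and 1.14, so shNR4A2 was higher within each number. Without the second shNR4A2 library the amplitude ratio was 1.125. Without shNT control library 3 it was 1.046, the lowest ratio on leaving out any library.

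**Figure D2:**
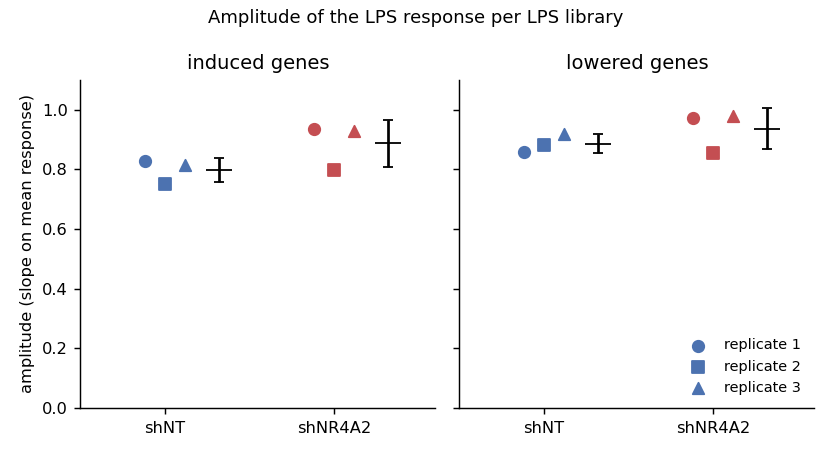
The amplitude of each LPS library (y axis, slope on the mean response, no unit) is plotted by line for induced genes (left) and lowered genes (right), with the group mean and SD in black. The shNR4A2 libraries lie between 0.797 and 0.936 for induced genes and the shNT libraries between 0.750 and 0.826, with the second library lowest in both lines.

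The ratio varied with the strength of induction. For the 419 genes with a mean log2 fold change between 1 and 2 the amplitude ratio was 1.143, for the 165 genes between 2 and 3 it was 1.099, and for the 193 genes between 3 and 5 it was 1.12. For the 114 most strongly induced genes, above 5, it was 1.038, with a median interaction of 0.13. Of these 114 genes, 28 had a group at 0 counts, against 2 of the 193 genes between 3 and 5. The fold changes of such genes depend on the prior count. Without genes with a group at 0 the ratio over all induced genes was 1.092. The part of these genes in the lower ratio above 5 was not tested. Protein-coding genes (617) and other gene types (274) gave ratios of 1.071 and 1.093. The 436 induced genes that reached 10 TPM in an LPS group gave 1.072, and the 455 below that level gave 1.084. Over all induced genes the median line difference was 0.12 in the controls and 0.38 with LPS. For the 85 genes with a higher response it was −0.22 in the controls and 0.69 with LPS, and for the 17 with a lower response it was 1.19 and 0.01. The 85 and 17 genes were picked by the difference between these line differences, so that their opposite arrangements are partly built in, and nothing is read from them.

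Genes lowered by LPS gave no direction that held. There were 623 such genes, with median log2 fold changes of −1.25 in shNT and −1.34 in shNR4A2 cells and an amplitude ratio of 1.055. The amplitude per library was 0.857, 0.882 and 0.919 in shNT (0.886 ± 0.0313, SD, n = 3) and 0.972, 0.856 and 0.980 in shNR4A2 (0.936 ± 0.0696, SD, n = 3). The lowest of all 6 values was thus a shNR4A2 library. The interaction was below 0 for 364 of the 623 (58.4%), against 47.8% of all genes tested. At an unadjusted p under 0.05 there were 20 genes (3.21%) in that direction and 6 (0.963%) in the other. Of all genes tested, 0.996% and 1.19% were. When the genes were chosen by shNT cells alone the ratio was 0.9467, and without the first shNT library with LPS it was 0.989.

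The inflammatory cytokines rose in equal number in both lines, and 2 of them had interactions whose intervals missed 0. Of 16 tested members, 12 rose in shNT cells and 12 in shNR4A2 cells, against 4.59% and 5.45% of all genes tested. The median interaction was 0.15. Over the 12 induced on average the amplitude ratio was 0.997 and the median interaction 0.19. These 12 include IL6, with 0 control counts in both lines. They also include CSF3, with 0 control counts in shNT and 3 in shNR4A2 cells and an interaction of −2.85. The part of such low counts in the ratio was not tested. TNF, a central early cytokine, was at 72.3, 71.9 and 51.6 TPM in shNT controls and at 2221, 2168 and 1964 TPM with LPS, and at 55.5, 96.8 and 65.4 TPM in shNR4A2 controls and 2223, 2130 and 2026 TPM with LPS. The lines overlapped in both treatments, with log2 fold changes of 5.23 and 5.15 and an interaction of −0.08 (95% interval −0.61 to 0.45). IL1B, the cytokine released through the inflammasome, was at 4935, 3686 and 3715 TPM with LPS in shNT and at 7943, 5137 and 4963 TPM in shNR4A2 cells. Its level with LPS was thus higher in each shNR4A2 library, but so was its mean in the controls, at 32.4 against 24.3 TPM. The LPS log2 fold changes of IL1B were 7.62 and 7.82, with an interaction of 0.20 (95% interval −0.37 to 0.77).

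Among the cytokines, 2 members had an unadjusted interaction p under 0.05, against 2.19% of all genes tested, and their directions were opposite. TNFSF15, a ligand of the death receptor DR3, was at 3.71, 2.54 and 2.81 TPM with LPS in shNT cells and at 19.6, 10.3 and 13.7 TPM in shNR4A2 cells. The lines did not overlap with LPS, while the controls did, at a mean of 0.547 and 0.919 TPM. Its interaction was 1.59 (95% interval 0.46 to 2.71, unadjusted p = 0.00873, adjusted p = 0.9999 by edgeR). TNFSF15 was not called in the main fit, but it was with no filter on low counts (adjusted p = 0.00111, edgeR). INHBA, a subunit of activin, reached 5.05 ± 0.689 TPM in shNT and 5.78 ± 0.570 TPM in shNR4A2 cells with LPS (SD, n = 3), from control levels of 0.0396 and 0.163 TPM that rested on 5 and 25 counts over the group. Its interaction was −1.80 (95% interval −3.27 to −0.34, unadjusted p = 0.0187). IL6, the classical acute-phase cytokine, had 0 counts in all 6 control libraries. With LPS it was at 3.62, 1.31 and 2.25 TPM in shNT and at 9.38, 5.46 and 7.52 TPM in shNR4A2 cells. Every shNR4A2 library was above every shNT library, and the line difference with LPS was 1.69 on the log2 scale (adjusted p = 0.015, edgeR quasi-likelihood test). Against a floor of 3 counts over the control group, IL6 was at least 27.0-fold higher with LPS in shNT and at least 94.2-fold higher in shNR4A2 cells. Both are lower bounds, from which no difference of the responses follows.

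Chemokines, which draw neutrophils, monocytes and lymphocytes, held several of the most strongly induced genes named here. Of 19 tested members, 15 rose in each line, against 4.59% and 5.45% of all genes in shNT and shNR4A2 cells. None had an unadjusted interaction p under 0.05, against 2.19% of all genes tested. The median interaction was 0.05 and the amplitude ratio of the 15 was 0.993. Among these 15, CCL8 had 1 and 2 control counts in shNT and shNR4A2 cells, and CXCL9 had 1 and 4. CXCL8, a neutrophil attractant, was at 5932, 5139 and 4170 TPM with LPS in shNT and at 7006, 5021 and 4187 TPM in shNR4A2 cells. The ranges overlapped, and the interaction was 0.26 (95% interval −0.48 to 1.00). CCL2, the monocyte attractant, reached 102 ± 33.6 TPM in shNT and 76.9 ± 25.7 TPM in shNR4A2 cells with LPS (SD, n = 3), with log2 fold changes of 3.46 and 3.37 and an interaction of −0.09. CCL20, which attracts CCR6-bearing cells, reached 1317 ± 205 and 1219 ± 397 TPM with LPS (SD, n = 3), from 8.47 and 5.20 TPM. Its interaction of 0.67 (95% interval −0.20 to 1.54) came with lower control levels in shNR4A2 cells and similar levels with LPS. CXCL2 and CXCL3, both neutrophil attractants, and CXCL10, an attractant of activated T cells, had log2 fold changes above 8 in both lines, with interactions between 0.03 and 0.58. CCL4, a macrophage inflammatory protein, went from 1.66 to 1191 TPM in shNT and from 1.76 to 1234 TPM in shNR4A2 cells, a level that is uncertain since CCL4 shares reads with its near-identical copy CCL4L2.

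The receptors and kinases that carry the LPS signal were mostly not called for LPS in either line. Of 27 tested members, 4 rose in each line, against 4.59% and 5.45% of all genes in shNT and shNR4A2 cells, and the median interaction was −0.02. TLR4, the LPS receptor itself, was at 21.6, 16.6 and 17.0 TPM in shNT controls and at 39.1, 36.1 and 26.4 TPM with LPS. In shNR4A2 cells TLR4 was at 26.1, 15.5 and 17.4 TPM in the controls and at 23.4, 24.3 and 16.3 TPM with LPS. The controls overlapped, while every shNT library with LPS was above every shNR4A2 library with LPS. The log2 fold change was 1.09 in shNT (adjusted p = 0.001, edgeR) and 0.38 in shNR4A2 cells (adjusted p = 0.185, edgeR), and the interaction was −0.71 (95% interval −1.31 to −0.11, unadjusted p = 0.023). TAB2, an adaptor of the kinase TAK1, showed the other sign, with 93.6 ± 2.04 TPM in shNT and 142 ± 12.3 TPM in shNR4A2 cells with LPS (SD, n = 3) and an interaction of 0.48 (95% interval 0.17 to 0.79, unadjusted p = 0.00502). TAB2 was singled out after its values were seen, as the only member with a positive interaction at an unadjusted p under 0.05. TLR2, the receptor for bacterial lipoproteins, rose alike, with an interaction of −0.03, and that of the kinase IRAK1 was −0.02. CD14, the co-receptor, did not change with LPS by the test in either line but was at 50.2 ± 14.4 TPM in shNR4A2 controls and 22.6 ± 8.35 TPM in shNT controls (SD, n = 3; line difference 1.14, adjusted p = 0.0374, edgeR). TLR7, a receptor for single-stranded RNA outside this list, went from 0.272 to 10.1 TPM in shNT and from 0.837 to 18.1 TPM in the shNR4A2 line, the log2 fold changes being 5.37 and 4.69 and an interaction of −0.67 (95% interval −1.70 to 0.35).

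The NF-κB subunits and their inhibitors rose in equal number in both lines. Of 11 tested members, 10 rose in each line, against 4.59% and 5.45% of all genes in shNT and shNR4A2 cells. The interactions ran from −0.12 to 0.32 with a median of 0.21, and none had an unadjusted p under 0.05. NFKBIA, the inhibitor IκBα and a direct target of NF-κB, was at 141, 117 and 118 TPM in shNT controls and at 1909, 1783 and 1644 TPM with LPS. The shNR4A2 line had 124, 119 and 115 TPM in the controls and 2105, 1938 and 1721 TPM with LPS. The lines overlapped in both treatments, with log2 fold changes of 4.04 and 4.28 and an interaction of 0.24 (95% interval −0.09 to 0.57). NFKBIZ, a nuclear IκB protein, went from 3.27 to 476 TPM in shNT and from 4.17 to 548 TPM in shNR4A2 cells, with an interaction of −0.09 (95% interval −0.49 to 0.31). REL and NFKB1, subunits of the factor, each had an interaction of 0.32, with intervals from −0.09 to 0.73 for REL and from −0.29 to 0.93 for NFKB1.

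Negative regulators that limit the LPS response were mostly induced. Of 23 tested feedback inhibitors, 13 rose in each line, against 4.59% and 5.45% of all genes in shNT and shNR4A2 cells. In shNT cells 2 fell and in shNR4A2 cells 1, against 2.96% and 3.62% of all genes. The median interaction was 0.14 and 14 interactions were above 0. TRAF1, BIRC3 and SOCS1 had positive interactions at an unadjusted p under 0.05, as did 1.19% of all genes tested, and no member had a negative one. BIRC3, an inhibitor of apoptosis and a ubiquitin ligase of the TNF receptor complex, was at 35.6, 31.8 and 32.95 TPM with LPS in shNT and at 48.5, 40.6 and 54.4 TPM in shNR4A2 cells. The lines did not overlap with LPS, the control means were 0.884 and 0.742 TPM, and the interaction was 0.84 (95% interval 0.26 to 1.43, unadjusted p = 0.0074). TRAF1, an adaptor of TNF receptors that was singled out after its values were seen, was at 48.1, 34.3 and 38.4 TPM with LPS in shNT and at 74.4, 54.8 and 79.4 TPM in shNR4A2 cells. It too did not overlap with LPS, its control means were 1.91 and 2.00 TPM, and its interaction was 0.78 (95% interval 0.18 to 1.37, unadjusted p = 0.0136). SOCS1, a suppressor of cytokine receptor signalling, went the other way with LPS: it was at 18.8, 26.0 and 11.2 TPM in shNT controls and at 3.84, 3.53 and 4.596 TPM with LPS. In the shNR4A2 line SOCS1 was at 13.1, 14.6 and 11.7 TPM in the controls and at 5.61, 5.75 and 8.37 TPM with LPS. SOCS1 fell in shNT cells (log2 fold change −2.005, adjusted p = 0.000194, edgeR) and had a log2 fold change of −0.71 in shNR4A2 cells (adjusted p = 0.0901, edgeR), so that its interaction of 1.29 (95% interval 0.38 to 2.20) stands for a smaller fall. TNFAIP3, the ubiquitin-editing enzyme A20, had log2 fold changes of 5.85 and 5.78 and an interaction of −0.07. SOD2, the mitochondrial superoxide dismutase, had 6.54 and 6.79 and an interaction of 0.25.

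Bases upstream of the transcription start of genes named above are shown here, since NF-κB and the nuclear receptors act at such sites; they come from RefSeq on GRCh38.p14 and run 5′ to 3′ toward the start, on the strand of the gene. Capitals mark matches to the κB consensus, the AP-1 motif TGANTCA, the TATA box TATAAA or the 7-base core AAGGTCA of the NR4A response element NBRE, found on either strand. The windows are NFKBIA at chr14:35404750-35404999 (minus strand), NFKBIZ at chr3:101827740-101827989 (plus), CCL20 at chr2:227813592-227813821 (plus), BIRC3 at chr11:102317234-102317449 (plus), SOCS1 at chr16:11256205-11256454 (minus) and TNFSF15 at chr9:114792531-114792780 (minus). Those of CCL20 and BIRC3 stop short of the RefSeq start, and that of BIRC3 ends where an exon of the GENCODE annotation begins.
NFKBIA: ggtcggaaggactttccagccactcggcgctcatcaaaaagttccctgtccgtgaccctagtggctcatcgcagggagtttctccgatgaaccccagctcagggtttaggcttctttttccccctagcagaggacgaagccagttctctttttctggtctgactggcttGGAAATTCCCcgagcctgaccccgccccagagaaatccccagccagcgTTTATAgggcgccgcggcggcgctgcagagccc
NFKBIZ: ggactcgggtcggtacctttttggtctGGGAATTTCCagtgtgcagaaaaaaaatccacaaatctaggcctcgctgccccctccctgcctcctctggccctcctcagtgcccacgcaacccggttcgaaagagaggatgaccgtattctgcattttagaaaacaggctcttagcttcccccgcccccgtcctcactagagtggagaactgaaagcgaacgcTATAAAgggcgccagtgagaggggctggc
CCL20: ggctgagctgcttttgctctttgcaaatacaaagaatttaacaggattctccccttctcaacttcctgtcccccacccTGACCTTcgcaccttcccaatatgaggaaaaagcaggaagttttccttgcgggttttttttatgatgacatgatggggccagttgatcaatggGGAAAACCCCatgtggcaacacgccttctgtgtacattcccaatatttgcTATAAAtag
BIRC3: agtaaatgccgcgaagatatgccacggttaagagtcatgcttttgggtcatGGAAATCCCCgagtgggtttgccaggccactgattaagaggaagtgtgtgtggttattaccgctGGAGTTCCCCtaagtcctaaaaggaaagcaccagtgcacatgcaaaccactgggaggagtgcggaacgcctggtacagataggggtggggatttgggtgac
SOCS1: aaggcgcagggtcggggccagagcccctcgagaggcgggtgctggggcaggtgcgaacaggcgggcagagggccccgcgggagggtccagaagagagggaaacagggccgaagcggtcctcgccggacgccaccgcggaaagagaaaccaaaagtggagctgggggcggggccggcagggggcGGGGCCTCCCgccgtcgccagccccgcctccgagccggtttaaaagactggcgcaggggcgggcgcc
TNFSF15: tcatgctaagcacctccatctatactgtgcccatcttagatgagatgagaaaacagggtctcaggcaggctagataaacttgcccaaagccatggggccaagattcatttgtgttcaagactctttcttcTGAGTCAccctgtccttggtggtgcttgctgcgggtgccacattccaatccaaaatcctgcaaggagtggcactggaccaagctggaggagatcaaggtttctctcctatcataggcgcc

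NFKBIA, NFKBIZ and CCL20, whose interactions had intervals containing 0, each held a κB match and a TATA match. BIRC3 held 2 κB matches, SOCS1 held 1 and TNFSF15 held an AP-1 match. The core AAGGTCA was found in the CCL20 window, on the opposite strand. Over all genes, a window of 250 bases before the start was found for 523 of the 891 induced genes and for 11088 of the genes tested. A κB match was held by 16.6% of the induced genes' windows, by 21.97% of the 173 with a mean log2 fold change of at least 3 and by 11.8% of the windows of all genes tested. The TATA box was held by 13.4%, 23.7% and 5.51% of the same windows, the AP-1 motif by 7.46%, 11.6% and 4.08%, and the cyclic AMP response element TGACGTCA by 2.68%, 2.89% and 2.71%. The full NBRE AAAGGTCA, which contains the core, was held by 0.956%, 0.578% and 0.713%, and the core by 4.21%, 4.05% and 2.30%. Of the 55 windows of induced genes with a higher response in shNR4A2 cells at an unadjusted p under 0.05, 10.9% held a κB match and 5.46% the core AAGGTCA, and of the 12 with a lower response 33.3% and 8.33% did. In all 27305 promoters of the table, κB matches were held by 9.57%, the TATA box by 11.1%, the AP-1 motif by 6.60%, TGACGTCA by 1.77%, NBRE by 1.05% and the core by 3.46%. A match is a description of these letters and not a site of binding.

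Immediate early transcription factors, which are switched on before new protein is made, gave both signs. Of 23 tested members, 15 rose in each line, against 4.59% and 5.45% of all genes in shNT and shNR4A2 cells. In shNT cells 2 fell and in shNR4A2 cells 1, against 2.96% and 3.62% of all genes. The median interaction was 0.14. BTG2, an antiproliferative early gene, went from 35.4 to 1447 TPM in shNT and from 67.3 to 2239 TPM in shNR4A2 cells. Its line difference was 0.92 without LPS (adjusted p = 5.2e-05, edgeR) and 0.68 with LPS (adjusted p = 0.000414, edgeR), so it was higher in shNR4A2 cells throughout while its interaction was −0.24 (95% interval −0.54 to 0.06). JUN, a subunit of AP-1, went from 103 to 750 TPM and from 136 to 756 TPM, with an interaction of −0.34 (95% interval −0.85 to 0.18). KLF4, a factor of monocyte differentiation, was at 19.4, 15.3 and 16.9 TPM in shNT controls and at 19.5, 15.5 and 13.2 TPM with LPS. In shNR4A2 cells KLF4 was at 38.6, 27.5 and 28.1 TPM in the controls and at 19.2, 15.3 and 10.4 TPM with LPS. The lines thus differed in the controls and overlapped with LPS, and the interaction was −0.92 (95% interval −1.54 to −0.30, unadjusted p = 0.00656). KLF4 was not called in the main fit, but it was with no filter on low counts (adjusted p = 0.0202, edgeR). FOS, the partner of JUN in AP-1, was higher in every shNR4A2 library in both treatments, with control means of 28.8 and 54.1 TPM, LPS means of 33.3 and 41.9 TPM and an interaction of −0.51 (95% interval −0.92 to −0.10). IER5, a further early gene, had control means of 37.0 and 26.1 TPM, LPS means of 98.3 and 88.4 TPM and an interaction of 0.41 (95% interval 0.12 to 0.70). FOS and IER5 were singled out after their values were seen.

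The DUSP phosphatases, which switch off mitogen-activated protein kinases, rose in 6 of 10 cases in shNT and 4 of 10 in shNR4A2 cells. Of all genes 4.59% and 5.45% rose, and the median interaction of the DUSP list was 0.04. Whether the 6 and 4 of 10 differ between the lines was not tested. DUSP1, an early phosphatase of p38 and JNK, went from 5.55 to 45.3 TPM in shNT and from 6.29 to 74.3 TPM in shNR4A2 cells, with an interaction of 0.61 (95% interval −0.11 to 1.33). DUSP6, a phosphatase of ERK, had an interaction of 0.66 (95% interval −0.06 to 1.39). DUSP10, a phosphatase of p38 and JNK that was singled out after its values were seen, had control means of 27.3 and 45.8 TPM, LPS means of 54.8 and 60.4 TPM and an interaction of −0.55 (95% interval −1.06 to −0.05, unadjusted p = 0.0335).

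Most interferon-stimulated genes were not called at 2 hours, and none had an unadjusted interaction p under 0.05. Of 34 tested members, 6 rose in shNT and 9 in shNR4A2 cells, against 4.59% and 5.45% of all genes. The median interaction was 0.10 and 26 of 34 interactions were above 0, against 52.2% of all genes. Over the 7 members induced on average the amplitude ratio was 0.884, with 4 interactions above 0, 3 below and a median of 0.32. One of the 7, IFNB1, had 0 control counts in shNT and 1 in shNR4A2 cells, with an interaction of −1.35. The part of such low counts in the ratio was not tested, so no weaker response is read from it. GBP1, an interferon-induced GTPase, was under 2 TPM in every library and had an interaction of −0.67 (95% interval −1.83 to 0.49), and ISG20, an exonuclease, had 0.65 (95% interval −0.08 to 1.37). Of 26 tested genes of antigen presentation, 1 rose in each line, against 4.59% and 5.45% of all genes in shNT and shNR4A2 cells. The median interaction of these 26 genes was 0.05. HLA-B, a class I heavy chain whose reads are shared with other class I genes and which is therefore uncertain, was at 411 and 555 TPM in shNT and at 666 and 883 TPM in shNR4A2 cells, without and with LPS. It stood higher in shNR4A2 cells in both treatments (line differences 0.69, adjusted p = 0.00626, and 0.73, adjusted p = 0.00398, edgeR), with an interaction of 0.03. B2M, the light chain of class I, had an interaction of 0.15, and HLA-DQA1, a class II chain that was under 1 TPM in every library, had 0.84 (95% interval −0.57 to 2.25).

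Of 10 reference genes none rose or fell in either line, and their interactions ran from −0.21 to 0.10. Of all genes tested, 4.59% rose and 2.96% fell in shNT cells, and 5.45% and 3.62% in shNR4A2 cells. ACTB had an interaction of 0.05. HPRT1, at −0.21, had a large difference between the lines that LPS did not alter by the test: it was at 118 ± 12.6 TPM in shNT and 32.4 ± 2.36 TPM in shNR4A2 controls (SD, n = 3; line difference −1.87, adjusted p = 7.97e-08, edgeR). Some genes that the study names for this line had large line differences with and without LPS, and AKR1C2, NCAM1, POU4F2 and HUNK are given here. AKR1C2, a steroid-metabolising reductase, was at 48.1 and 39.0 TPM in shNT and at 542 and 472 TPM in shNR4A2 cells, without and with LPS, with an interaction of 0.16 (95% interval −0.12 to 0.44). NCAM1, a cell adhesion molecule, had line differences of 2.98 and 3.01 and an interaction of 0.03. POU4F2, a neural transcription factor, had line differences of 4.25 and 3.92 and an interaction of −0.33. HUNK, a kinase, had line differences of −3.27 and −2.94 and an interaction of 0.33. For these genes the difference between lines was there before LPS, and LPS log2 fold changes of both lines were within 1 of 0.

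**Figure D3:**
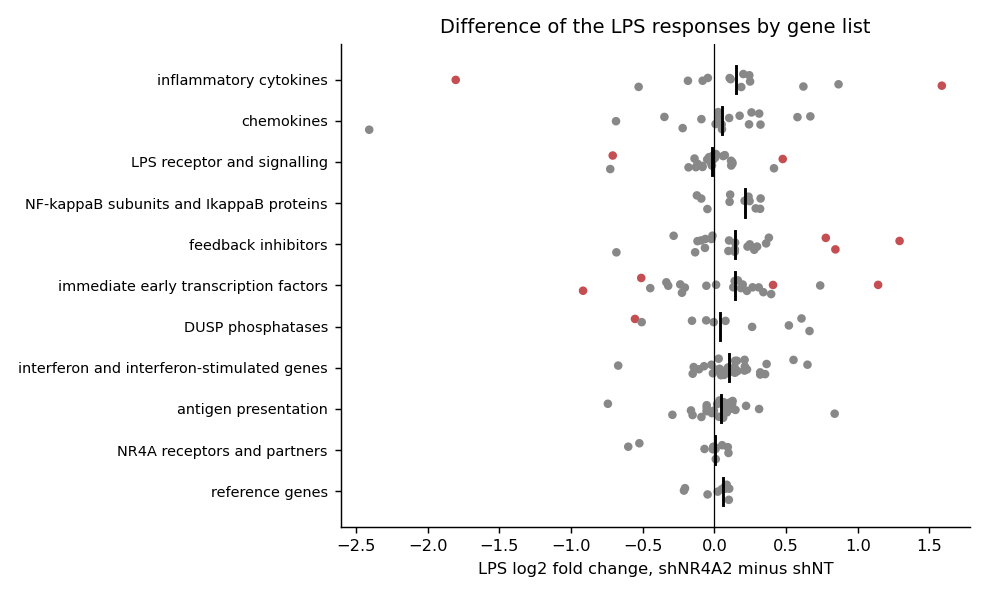
Each point is a tested member of the list named on the y axis, with its interaction (LPS log2 fold change in shNR4A2 minus shNT) on the x axis; red points have an unadjusted p under 0.05, black bars are list medians, and genes with a group at 0 counts are left out. List medians lie between −0.02 and 0.21, and 12 members are red, on both sides of 0.

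Genes with the clearest differences in response were named by the smallest unadjusted p on each side among genes reaching 1 TPM in a group. None of them was called in the main fit. With no filter on low counts, AC006449.6, CFLAR, CXCR4, GCNT1, KANK1, MYC, PHLDA1 and RCAN1 were called. With the replicate number added to the model, CXCR4, MYC, PHLDA1 and RCAN1 were. MYC, the growth-promoting factor, was at 381, 391 and 450 TPM in shNT controls and at 58.5, 45.8 and 52.5 TPM with LPS. In shNR4A2 cells MYC was at 254, 265 and 272 TPM in the controls and at 90.4, 56.0 and 68.2 TPM with LPS. MYC fell in both lines, from a lower level and by less in the shNR4A2 line, the log2 fold changes being −2.74 and −1.60 and an interaction of 1.14 (95% interval 0.67 to 1.62, adjusted p = 0.946, edgeR). Its levels did not overlap between the lines in the controls and overlapped with LPS.

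CFLAR, which encodes the caspase-8 inhibitor c-FLIP, was at 19.8, 15.8 and 19.1 TPM in shNT controls and 13.2, 13.0 and 11.7 TPM in shNR4A2 controls. With LPS it was at 43.1, 38.7 and 40.2 TPM and at 48.4, 37.6 and 50.8 TPM. The lines were apart in the controls and overlapped with LPS, and the interaction was 0.75 (95% interval 0.35 to 1.15). RAPGEF2, an exchange factor of Rap GTPases, was at 8.20, 8.06 and 7.20 TPM in shNT and at 11.8, 10.9 and 11.2 TPM in shNR4A2 cells with LPS, with control means of 7.46 and 6.94 TPM. Its levels were apart with LPS and overlapped in the controls, and its interaction was 0.70 (95% interval 0.38 to 1.01). KANK1, an adaptor of the cortical cytoskeleton, went from 14.6 to 7.45 TPM in shNT cells and from 9.47 to 9.40 TPM in shNR4A2 cells, an interaction of 1.03 (95% interval 0.54 to 1.52). AC006449.6 and C11orf96 both reached higher levels with LPS in shNR4A2 cells, at means of 47.9 against 15.6 TPM and 20.4 against 8.26 TPM, from control means near 2 TPM in both lines. Their interactions were 1.72 and 1.398. MID2, a ubiquitin ligase, KDM5B, a histone demethylase, and ZBTB10, a zinc finger repressor, had interactions of 0.80, 0.55 and 0.52. Since the strand used in counting was not given in the sources used here, transcripts that overlap other genes, AC006449.6 and C11orf96 among them, are uncertain.

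**Figure D4:**
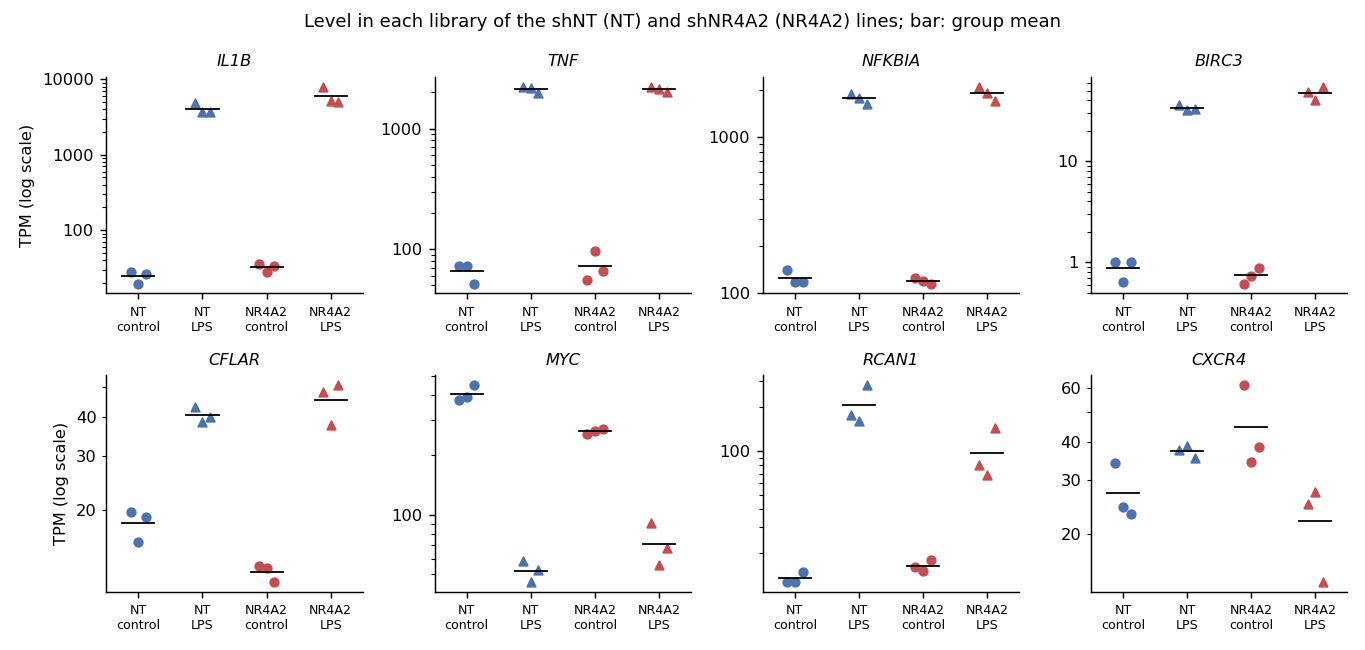
TPM of 8 genes (y axes, log scale) in each of the 12 libraries, as circles for control and triangles for LPS, blue for shNT and red for shNR4A2, with group means as bars. IL1B, TNF and NFKBIA rise alike in both lines, BIRC3 reaches 40.6 to 54.4 TPM in shNR4A2 against 31.8 to 35.6 TPM in shNT cells with LPS, and RCAN1 and CXCR4 are lower with LPS in shNR4A2 cells.

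On the other side, CXCR4, the receptor of CXCL12 that retains leukocytes in the bone marrow, was at 34.0, 24.4 and 23.2 TPM in shNT controls and at 37.7, 38.7 and 35.4 TPM with LPS. In shNR4A2 cells it was at 61.2, 34.3 and 38.4 TPM in the controls and at 24.99, 27.3 and 13.9 TPM with LPS. Its control level was thus higher and its LPS level lower in each shNR4A2 library, and the LPS log2 fold changes were 0.66 (adjusted p = 0.0602, edgeR) and −0.76 (adjusted p = 0.0272, edgeR). The interaction was −1.42 (95% interval −2.13 to −0.71, unadjusted p = 0.000623). RCAN1, an inhibitor of the phosphatase calcineurin, was at 12.8, 12.7 and 14.9 TPM in shNT controls and at 176, 159 and 281 TPM with LPS. In shNR4A2 cells RCAN1 was at 16.2, 15.1 and 17.9 TPM in the controls and at 80.0, 68.8 and 144 TPM with LPS. RCAN1 rose in both lines, with log2 fold changes of 4.16 and 2.86, and every shNT library with LPS was above every shNR4A2 library with LPS. The interaction was −1.30 (95% interval −2.06 to −0.55, unadjusted p = 0.00217).

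PHLDA1, an early gene with a pleckstrin homology-like domain, was at 3.92, 4.03 and 4.20 TPM in shNT controls and 9.27, 10.4 and 8.62 TPM in shNR4A2 controls. With LPS it was at 41.1, 39.3 and 32.1 TPM and at 51.9, 48.4 and 35.8 TPM. The lines were apart in the controls (line difference 1.22, adjusted p = 0.00014, edgeR) and overlapped with LPS, which gave an interaction of −0.89 (95% interval −1.31 to −0.47). GCNT1, which builds branched O-glycans, fell from 31.2 to 8.45 TPM in shNR4A2 cells and had means of 20.3 and 10.8 TPM in shNT cells, an interaction of −0.93 (95% interval −1.43 to −0.43). PPAN, a ribosome biogenesis factor, was at 29.2 and 25.6 TPM in shNT and at 31.1 and 16.3 TPM in shNR4A2 cells, with an interaction of −0.68. MIR222HG, the host transcript of miR-221 and miR-222, had an interaction of −1.17, with control means of 1.85 and 4.06 TPM and LPS means of 9.15 and 8.46 TPM. The interactions of AC003102.1, AC040162.3, AL139393.2 and ZNF503 were −1.31, −1.14, −0.98 and −0.62, and of these AC003102.1 and AL139393.2 are annotated as antisense transcripts and are uncertain for the reason given above.

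**Figure D5:**
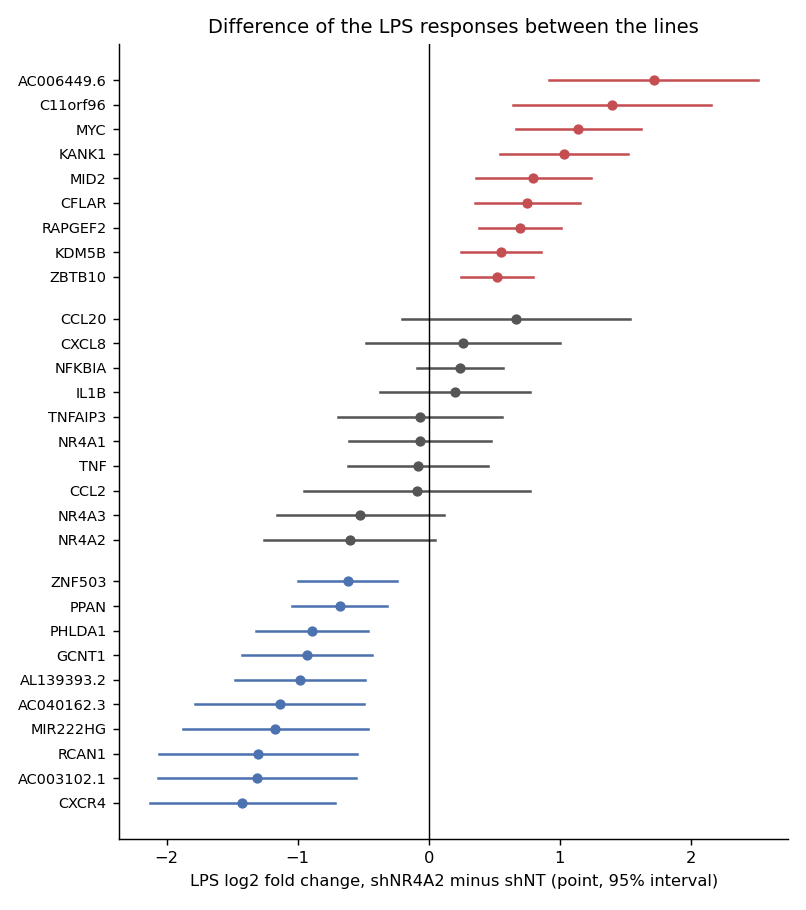
Interaction of line and LPS (x axis, LPS log2 fold change in shNR4A2 minus shNT) with its 95% interval for genes named on the higher side (red), 10 central genes of the response or the NR4A family (grey) and the 10 genes named on the lower side (blue). The red and blue genes were chosen by their p, so that their intervals miss 0 by construction, and those of the grey genes contain 0.

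The genes with the largest induction over both lines are described last, with those that LPS lowered most. Among those reaching 10 TPM with LPS, TNFAIP6, a hyaluronan-binding protein, reached 604 ± 136 TPM in shNT and 817 ± 263 TPM in shNR4A2 cells (SD, n = 3), with log2 fold changes of 9.28 and 9.66. IL12B, the p40 chain shared by IL-12 and IL-23, reached 70.2 ± 4.64 and 91.3 ± 25.2 TPM (SD, n = 3), from control groups of 7 and 16 counts, with an interaction of −0.53 (95% interval −2.18 to 1.12). SHROOM3, an actin-binding protein, had an interaction of 0.73 (95% interval −0.47 to 1.94), with 27.2 ± 0.993 TPM in shNT and 36.9 ± 4.87 TPM in shNR4A2 cells with LPS (SD, n = 3). Its levels with LPS did not overlap, and its control levels were under 0.3 TPM. MIR3142HG, the host transcript of miR-146a, reached 194 and 151 TPM, with log2 fold changes of 9.26 and 9.36. Among the genes that LPS lowered most, CCR2, the receptor for CCL2, was at 185 ± 52.9 TPM in shNT and 310 ± 111 TPM in shNR4A2 controls and at 13.0 ± 5.29 and 25.2 ± 13.2 TPM with LPS (SD, n = 3). Its log2 fold changes were −3.63 and −3.37. NFE2, a factor of the erythroid and megakaryocytic lineages, had −3.22 and −3.18, and C16orf54 had −2.93 and −2.82. INKA1, an inhibitor of the kinase PAK4, and FRG2 had interactions of 0.06 and 0.52, with control means of 42.4 and 29.5 TPM for INKA1, and FRG2 is uncertain since it has near-identical copies.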

How the data were processed

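The deposited files held, for each gene and library, whole-number counts made by the authors with Trimmomatic 0.36, STAR 2.5.2b and featureCounts of Subread 1.5.2 on GRCh38, per the submitters' processing notes; the strand setting was not given in the sources used here. The unit of the deposited values is therefore the raw count per gene, with the gene's exon length beside it. Symbols came from GENCODE 29 (56898 of 57500 genes). Counts of 12 libraries (17132910 to 23929138 each) were fitted in 1 edgeR 4.0.16 quasi-likelihood model (R 4.3.3, limma 3.58.1) with 4 groups, TMM normalization and edgeR's filter on low counts, which left 16674 genes, and p-values were adjusted by Benjamini-Hochberg over these. A call needed an adjusted p under 0.05, and for LPS also a 2-fold change. TPM were computed from the counts and gene lengths. Genes were named by rule: the NR4A receptors and genes the study names, the 10 per side with the smallest interaction p (1 TPM or more), the 10 most induced and 5 most lowered (10 TPM or more), and in each list the 2 with the highest level and the 2 with the largest interaction; those outside the rule are marked, and some genes the rule takes are not reported here. The members and lists were chosen with earlier results of these data known. Alternatives were DESeq2 1.42.0 and the settings given at the end. The scripts were tested on simulated data. Intervals cover the spread between libraries, and the floor of 3 counts covers counting error only.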

Additional observations from a re-analysis of the deposited data

How the results depend on the processing

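The count of interaction calls changed most with the setting: DESeq2 called 2 genes and the fit with no filter on low counts 29 (22 higher, 7 lower), with 0 under RLE normalization and 0 with all 18 libraries in 1 fit. Leaving out a library gave 0 to 8 calls, the 8 without the second shNR4A2 library with LPS. The cause of these changes was not tested. The LPS calls ranged from 1145 to 1297 in shNT and from 1367 to 1748 in shNR4A2 cells on leaving out a library, and a test against the 2-fold limit itself (glmTreat) gave 534 and 680. All other settings left these counts within 1.5 times. The amplitude ratio of induced genes ran from 1.046 to 1.125 without a library, was 1.025 as a major axis with an intercept, and was 1.06 with genes chosen by shNT, 1.089 by shNR4A2 and 1.074 by the 6 shNR4A3 libraries outside the comparison. It was above 1 in each setting tried. The ratio of lowered genes was 0.9467 with genes chosen by shNT, 1.172 by shNR4A2 and 0.978 by regression through the origin, and ran from 0.989 to 1.2 without a library, so it had no stable side of 1. Choosing genes by the response of a line favours that line by construction. The interval of the interaction lay within a 2-fold difference on either side for 55.3% of induced genes reaching 10 TPM with LPS and for 7.91% of the others, and the parts of depth and of the spread between libraries were not tested.

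Replicate numbers did not pair the libraries by the rule used here, since over 18 pairs of same-numbered libraries the lowest correlation of deviations from the group means was 0.0174 (median 0.212, highest 0.331) over all genes tested and −0.0078 (median 0.525, highest 0.807) over the 5000 most abundant, although 12 of 12 libraries correlated best with their own number. Adding this number to the model (replicate block) gave 8 interaction calls (4 higher, 4 lower, smallest adjusted p 0.03888 by edgeR), among them MYC, CXCR4, KLF4, RCAN1 and PHLDA1, and with the number nested in line 0 were. Within a number, the ratio of the LPS library amplitudes of induced genes was 1.13, 1.06 and 1.14.

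For 76 named genes with an interaction value, 1194 values under the alternatives kept their sign and side of the threshold, 20 values of 10 genes passed it, and 78 values of 25 genes changed sign. Apart from CXCL10 these sign changes came from leaving out a library, with ranges of −0.043 to 0.11 for ACTB, −0.097 to 0.30 for C16orf54, −0.43 to 0.22 for CCL2, −0.36 to 0.26 for CCL4, −0.085 to 0.61 for CCR2, −0.59 to 0.51 for CXCL10, −0.20 to 0.33 for CXCL2, −0.022 to 0.48 for CXCL8, −0.12 to 1.13 for FRG2, −0.11 to 0.13 for HLA-B, −0.093 to 0.36 for IL1B, −0.15 to 0.30 for INKA1, −0.13 to 0.074 for IRAK1, −0.36 to 0.72 for MIR3142HG, −0.12 to 0.14 for NCAM1, −0.42 to 0.27 for NFE2, −0.19 to 0.043 for NFKBIZ, −0.24 to 0.11 for NR4A1, −0.66 to 0.0019 for POU4F2, −0.12 to 0.13 for RXRA, −0.16 to 1.26 for SHROOM3, −0.08978 to 0.047 for TLR2, −0.24 to 0.20 for TNF, −0.23 to 0.22 for TNFAIP3, −0.10 to 1.28 for TNFAIP6. CXCL10 was −0.0008006 with DESeq2 and −0.03073 with the replicate block.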

Other observations

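The series also holds 6 libraries of another line, with a hairpin against NR4A3, which entered no comparison of the 2 lines other than as alternatives for the fit and the choice of genes. They were fitted on their own here with edgeR, so that these log2 fold changes stand beside the others without a test of the difference. MYC, with LPS log2 fold changes of −2.74 in shNT and −1.60 in shNR4A2 cells, had −2.24 in shNR4A3 cells, and CFLAR had 1.99. CXCR4, the receptor of CXCL12, had −0.89, with 73.6, 48.6 and 38.9 TPM in the controls and 25.8, 29.7 and 19.3 TPM with LPS. GCNT1 had −1.42 and RAPGEF2 0.85. The calcineurin inhibitor RCAN1 and the early gene PHLDA1 had 3.65 and 3.19, against 4.16 and 3.43 in shNT and 2.86 and 2.54 in shNR4A2 cells. KANK1 had 0.40 (adjusted p = 0.133, edgeR). TNF had 6.14, from a control level of 19.3 to 39.8 TPM, and IL1B had 8.45. NFKBIA had 3.77.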
